A study of Homo sapiens with 18 samples.

Results

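HEK-293E cells fed for 4 h in the presence of Torin1 were set against HEK-293E cells fed for 4 h without it, across all expressed genes. HEK-293E is an established human embryonic kidney line that grows in culture. Torin1 is a small molecule that blocks the catalytic site of mTOR, the kinase shared by the complexes mTORC1 and mTORC2. The comparison used 6 of the 18 libraries of the study, 3 with Torin1 and 3 without, chosen by their labels alone. All groups came from cells starved overnight in medium with very little serum. The 4 h and 1 h fed groups then received regular growth medium with serum, with or without Torin1, and the starved groups, with or without Torin1, received none. The sources used here give neither the dose of Torin1 nor how long it was on the cells. RNA was extracted, sequenced and summed per gene, and the deposited table holds 60623 genes, of which 16414 passed the filter on low counts and were tested.

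mTORC1 sits on the lysosome, where amino acids and growth factors switch it on. It raises protein synthesis by phosphorylating the ribosomal S6 kinases and the 4E-BP translation repressors, and it raises the output of transcription factors for amino acid synthesis, lipid synthesis and glycolysis. mTORC1 also holds back autophagy and the lysosomal factors TFEB and TFE3, while mTORC2 activates AKT, which keeps FOXO transcription factors out of the nucleus. Torin1 blocks both complexes, and the messages of these programmes can be read together in RNA from fed cells.

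The 6 libraries held 11071924 to 13352511 counts each, and 14404 to 15644 genes had at least 10 reads. Library totals averaged 12832760 (SD 549047, n = 3) with Torin1 and 11415433 (SD 582580, n = 3) without. Pearson correlations of log2 CPM over the genes tested were 0.9831 to 0.9844 among the Torin1 libraries, 0.9756 to 0.9801 among the libraries without it and 0.9393 to 0.9473 between the groups. Levels below are CPM, counts normalised to each library's TMM-scaled total, given by replicate. A count of 0 allows up to 0.2247 to 0.271 CPM, a limit reckoned on totals without the TMM factor that covers counting error only. Whether replicates were separate cultures is not stated, and every p-value therefore reflects only the variation among the libraries, which may be technical. In RNA from whole cultures, fewer cells that use a gene and less RNA per cell cannot be told apart.

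The second Torin1 replicate stood apart in genes of connective tissue, singled out after their values were seen. COL1A2, a fibrillar collagen, had 0.284, 5.56 and 0.073 CPM with Torin1 and 0 CPM in each library without it. DCN, a matrix proteoglycan, had 0.071, 1.22 and 0 CPM with Torin1, against 0 CPM in each library without it. Summed over 8 fibroblast markers the level was 17 to 38.3 CPM with Torin1 and 8.92 to 15.7 CPM without, and FAP was at 0 in all 6 libraries. The sums of the immune markers (2.46 to 3.16 against 1.4 to 2.43 CPM), the endothelial markers (1.64 to 2.13 against 0.787 to 2.4 CPM) and the carcinoma markers (10.2 to 12.9 against 10.6 to 12.9 CPM) were low in both groups. The 7 markers expected in HEK-293 cells were present in every library and summed to 1500 to 1610 CPM with Torin1 and 955 to 987 CPM without. VIM, an intermediate filament, was higher by 1.20 on the log2 scale and NEFM, a neurofilament, was lower by a log2 change of -1.64. Neither the source of these connective tissue reads nor their part in the results was tested. Without the second Torin1 replicate 4039 genes were higher and 4256 lower.

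With all 6 libraries, 4504 genes (27.4% of those tested) were higher with Torin1 and 4692 (28.6%) were lower in edgeR's quasi-likelihood test at an adjusted p under 0.05. Counts of list members below are to be set against these shares. A change of at least 2-fold was found for 1992 higher genes (12.1%) and 1010 lower genes (6.15%). The 2 groups did not overlap for 9930 genes (60.5%). Across all genes tested the median log2 fold change was 0.02, and the middle 50% lay between -0.45 and 0.59. Scaling by total counts in place of TMM moved the median of all genes by 0.162 on the log2 scale and split the calls into 5773 higher and 3453 lower, so changes below are relative to the TMM scale.

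Genes of amino acid synthesis were lower nearly throughout. Of 21 tested genes of amino acid synthesis that the transcription factor ATF4 is known to drive, 20 fell (95.2%) and 0 rose, with a median log2 fold change of -1.04 against 0.02 for all genes. ASNS (ENSG00000070669), which makes asparagine, had 47.7, 51.7 and 47.7 CPM with Torin1, against 333, 347 and 263 CPM without. Every Torin1 library was far below every library without it, with a log2 change of -2.68 (SE 0.10, edgeR adjusted p = 3.87e-19). PSAT1, an enzyme of serine synthesis, had 78.3, 70.9 and 72.5 CPM with Torin1, against 385, 376 and 327 CPM without (log2 fold change -2.29). CTH, which makes cysteine, had 12, 10.2 and 9.9 CPM with Torin1, against 65.5, 72.2 and 54.9 CPM without (-2.58). BCAT1, the cytosolic branched-chain aminotransferase, had 37.1, 31.4 and 31.3 CPM, against 113, 146 and 114 CPM without Torin1 (-1.90).

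Transporters of amino acids split, with 15 of 23 tested lower, 5 higher and a median of -0.69. SLC7A5 (ENSG00000103257), the light chain of the LAT1 carrier of large neutral amino acids, had 90.9, 83.3 and 82.4 CPM with Torin1, against 585, 618 and 610 CPM without (log2 fold change -2.82, SE 0.10, edgeR adjusted p = 6.92e-19). SLC7A11, the cystine carrier, fell furthest of the list, with 2.85, 2.59 and 3.64 CPM with Torin1, against 69.9, 74.5 and 53.6 CPM without (-4.44). The glycine carrier SLC6A9 (-2.82) and the glutamate carrier SLC1A3 (-2.80) were also lower, as was SLC38A1, a glutamine carrier (-1.45). The members that rose did so by less: SLC38A10 by 0.72, SLC43A1 by 0.60, SLC7A2 by 0.36 and SLC38A7 by 0.35 on the log2 scale.

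Stress genes downstream of ATF4 and CHOP followed, with 16 of 22 tested lower, 1 higher and a median of -1.19. CHAC1, which degrades glutathione, had 1.21, 0.305 and 1.02 CPM with Torin1, against 17.4, 13 and 8.81 CPM without (log2 fold change -3.92, SE 0.35). STC2, a secreted glycoprotein, had 31.0, 34.6 and 31.7 CPM, against 193, 184 and 156 CPM without Torin1 (-2.45). ATF4 itself had 404, 407 and 399 CPM with Torin1, against 737, 699 and 654 CPM without, a smaller fall of 0.79 on the log2 scale (edgeR adjusted p = 4.29e-11). SESN2, which inhibits mTORC1 when leucine is scarce, and CEBPB, a partner of ATF4, had log2 fold changes of -1.81 and -1.90. DDIT4, another inhibitor of mTORC1, had 22.4, 13.8 and 13.8 CPM with Torin1, against 73.5, 54.0 and 54.7 CPM without. ERN1, the IRE1 sensor of the endoplasmic reticulum, was the 1 member that rose, by 0.88.

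**Figure D1:**
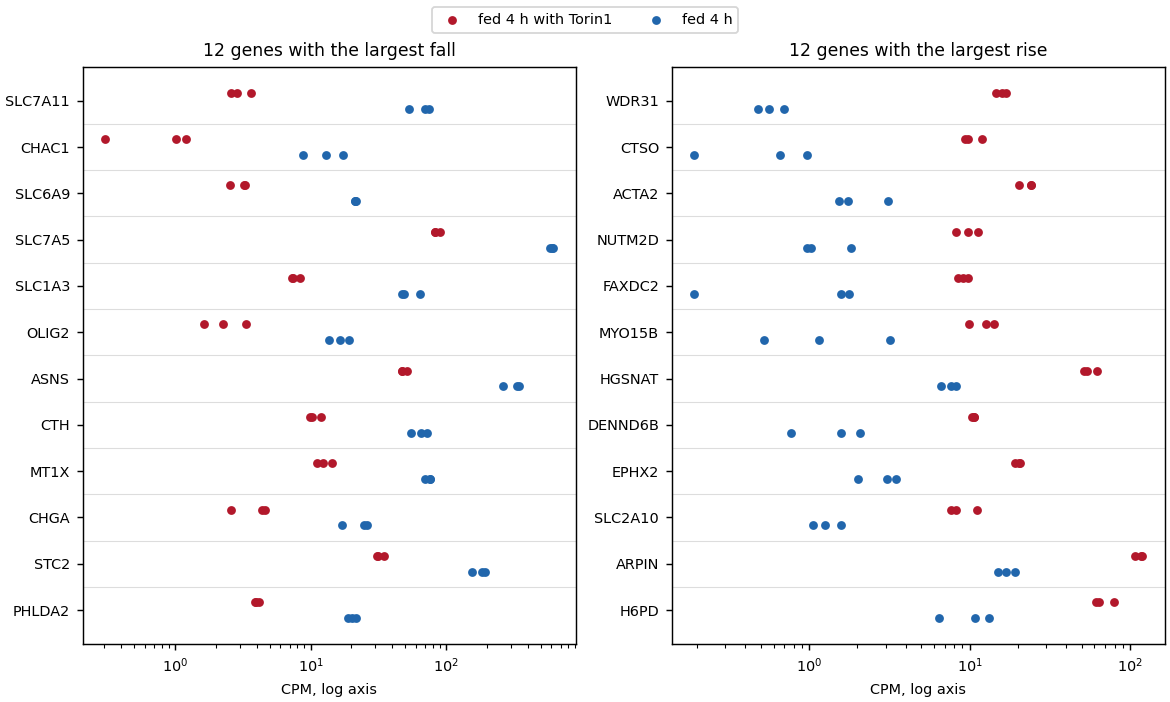
CPM on a log axis in each of the 3 libraries fed 4 h with Torin1 (red, upper row of each gene) and the 3 fed 4 h without it (blue), for the 12 genes with the largest fall (left) and the 12 with the largest rise (right) under the naming rule. The groups do not overlap in any of the 24 genes, as the rule requires, and SLC7A11 and WDR31 lie at the ends of the lists.

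Enzymes that charge transfer RNA in the cytosol were lower as a group, with 15 of 20 tested falling, 1 rising and a median of -0.66. GARS1, the glycyl enzyme, had 117, 116 and 109 CPM with Torin1, against 388, 451 and 357 CPM without (log2 fold change -1.81, SE 0.09, edgeR adjusted p = 2.57e-16). TARS1 (-1.66), YARS1 (-1.39) and IARS1 (-1.28) charge threonine, tyrosine and isoleucine. QARS1, the glutaminyl enzyme, went the other way with 393, 393 and 408 CPM with Torin1, against 196, 195 and 191 CPM without (1.04, edgeR adjusted p = 1.02e-13). The mitochondrial enzymes had no common direction: 7 of 17 rose and 5 fell, around a median of 0.14. MARS2 (-1.52), EARS2 (-1.47) and YARS2 (-1.42) fell, while VARS2 (0.75) and AARS2 (0.70) rose.

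The promoters of these genes were searched for the composite site that ATF4 and C/EBP proteins bind, TGATGNAA on either strand, in RefSeq windows on GRCh38.p14 from 250 bases before to 50 after a listed start. Windows were found for 11718 of 16401 tested symbols, 17049 windows in all, and 1.95% of them held the motif. It was in 3.35% of windows of genes lower by 2-fold and in 1.28% of those higher by 2-fold. Among the lists it was in 33.3% of 21 windows of cytosolic synthetases and in 23.1% of 26 windows of the synthesis genes, which covered 14 of 21 of them. Overlapping windows of a gene were counted apart, so a single site can count more than once, as that of MTHFD1L did. In the 150 bases before the start alone these shares were 9.52% of synthetase windows and 15.4% of synthesis windows, against 0.968% of all windows. That stretch leaves out sites across or after the start, such as the one of TARS1. A match describes the letters in the window and is not evidence of binding. The sites below were picked from genes that fell and hold the motif, ASNS and CHAC1 being among the steepest falls. No site was found for SLC7A11, SLC7A5, CTH or PSAT1, which also fell steeply, and not every gene had a window. FAXDC2, HRK and TSC2, which rose, hold the motif too. The sites shown are written along the gene's own strand with the motif or its reverse complement in capitals.
ASNS: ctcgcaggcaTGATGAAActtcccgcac
BCAT1: gtcttcctgcTGATGCAAtccgctaggt
CEBPG: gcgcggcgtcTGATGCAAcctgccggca
CHAC1: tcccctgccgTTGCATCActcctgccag
GARS1: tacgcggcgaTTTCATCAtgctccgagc
IARS1: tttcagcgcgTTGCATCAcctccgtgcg
TARS1: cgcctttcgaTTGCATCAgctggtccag

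On GRCh38.p14 these lie at chr7:97872459-97872486 on the minus strand (ASNS), chr12:24949132-24949159 minus (BCAT1), chr19:33374061-33374088 plus (CEBPG), chr15:40953252-40953279 plus (CHAC1), chr7:30594835-30594862 plus (GARS1), chr9:92293693-92293720 minus (IARS1) and chr5:33440957-33440984 plus (TARS1). Counted from 0 at the listed start, the motif begins at -68 in ASNS, -48 in BCAT1, -42 in CEBPG, -209 in CHAC1, -33 in GARS1, -13 in IARS1 and 2 in TARS1. CEBPG, a C/EBP partner of ATF4, had a log2 fold change of -1.25.

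Building of ribosomes was lower nearly throughout. Of 61 tested assembly factors, which process ribosomal RNA and load proteins onto it in the nucleolus, 57 fell and 2 rose, with a median of -1.0. Under total count scaling 53 were lower and 3 higher. URB2 (ENSG00000135763), a factor of the large subunit, had 58.8, 46.6 and 52.9 CPM with Torin1, against 182, 184 and 213 CPM without (log2 fold change -1.87, SE 0.10, edgeR adjusted p = 3.62e-15). NOP16, another nucleolar factor, had 23.3, 21.0 and 18.8 CPM, against 93.4, 77.3 and 82.0 CPM without Torin1 (-2.0). LYAR (-1.45) and TSR1 (-1.38) were lower, and NOP53 (0.60) and NOB1 (0.22) were the members that rose.

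RNA polymerase I, which transcribes the large ribosomal RNAs, had 10 of 15 members lower and 2 higher. RRN3, the initiation factor that ties the polymerase to growth signals, had 70.8, 65.1 and 57.9 CPM with Torin1, against 136, 144 and 126 CPM without (-1.07). UBTF, which binds ribosomal DNA, moved the other way, with 242, 256 and 264 CPM with Torin1, against 142, 147 and 173 CPM without (0.72, edgeR adjusted p = 1.81e-08). RNA polymerase III, which makes transfer RNA, had 15 of 22 members lower and 3 higher. Its alternative subunits moved apart: POLR3G had 8.83, 7.39 and 7.93 CPM with Torin1, against 23.6, 23.2 and 28.9 CPM without (-1.65), while POLR3GL had 34.5, 34.4 and 31.1 CPM, against 17.2, 18.5 and 16.2 CPM without (0.95).

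Messages for the ribosome's own proteins did not fall with the assembly factors. Of 80 tested, 33 rose, 6 fell and 41 were not called, with a median of 0.18, and under total count scaling 55 were higher and 2 lower. Without the second Torin1 replicate 26 were higher and 6 lower. RPL3 had 3780, 3630 and 3580 CPM with Torin1, against 2310, 2130 and 2060 CPM without (log2 fold change 0.76, SE 0.08). RPL10 (0.72), RPL29 (0.68) and RPL13A (0.55) also rose, and FAU (-0.43), RPL35 (-0.43), RPL27 (-0.33) and RPL36AL (-0.32) fell. Many of these genes have near-identical processed copies in the genome, so reads shared with copies make each value uncertain. Together they took 10.8, 10.4 and 10.5% of all counts with Torin1, against 8.77, 7.75 and 7.9% without, a difference of 2.46 percentage points that does not overlap between groups. The exact two-sided permutation test gave p = 0.1, the smallest it can give with 3 libraries a group.

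Translation factors divided by class. Of 14 tested factors whose messages begin with a terminal oligopyrimidine (TOP) tract, the feature through which mTORC1 controls their translation, 11 rose and 2 fell, with a median of 0.45. EIF4B, a helper of the helicase eIF4A, had 1290, 1310 and 1270 CPM with Torin1, against 785, 852 and 757 CPM without (0.69, edgeR adjusted p = 5.12e-10). Of 27 other initiation factors, 18 fell and 2 rose, with a median of -0.67. EIF5A had 475, 424 and 443 CPM with Torin1, against 1120, 1040 and 931 CPM without (-1.21). EIF2S1 (-1.36), EIF2S2 (-1.19) and EIF4G1 (-1.06), parts of the ternary complex and the cap-binding scaffold, fell, while EIF2S3 rose by 0.30. Of the 4E-BP repressors, EIF4EBP2 rose by 0.68 and EIF4EBP1 fell, with a log2 fold change of -1.13. EIF4EBP1 had 54.5, 43.5 and 45.7 CPM with Torin1, against 113, 87.6 and 115 CPM without (edgeR adjusted p = 1.56e-05). Host genes of small nucleolar RNAs, many of them TOP messages, had 9 of 16 higher and 3 lower, led by SNHG32 (1.41) and EPB41L4A-AS1 (1.11).

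A C at the listed start followed by at least 4 pyrimidines was present in 5.04% of all promoter windows, in 7.05% of windows of genes called higher and in 3.73% of those called lower. Among ribosomal protein genes 59.5% of 79 windows had it. By gene it was present in 20 of 27 matched genes that rose, 4 of 6 that fell and 23 of 31 that were not called. The starts below were picked from those that hold such a run, among genes that rose (the first 5 lines) and fell (the last 2). Not all named members have it: the listed starts of RPL3, which rose, and of RPL27 and RPL36AL, which fell, do not. RPL10 also has listed starts without such a run, and the listed start of EEF1G, a member of the TOP factor list, lacks it. The run from the listed start is in capitals, with 8 bases before it.
RPL10: aggagcgcCTCTTTCCCTTCggtgtg
RPL29: gcccctttCTCTTCCggttctaggcg
RPL13A: acctcctcCTTTTCCaagcggctgcc
EIF4B: atccgggtCTTTTgcgttctctttcc
NAP1L1: tcttgggtCTTTTTTagcgccatctg
FAU: gcttcttcCTCTTTCTCgactccatc
RPL35: cctacttcCTCTTTCCCTCggagcgg

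On GRCh38.p14 these stretches are chrX:154398369-154398394 plus (RPL10), chr3:51995878-51995903 minus (RPL29), chr19:49487600-49487625 plus (RPL13A), chr12:53006448-53006473 plus (EIF4B), chr12:76084668-76084693 minus (NAP1L1), chr11:65122117-65122142 minus (FAU) and chr9:124861940-124861965 minus (RPL35). Starts are RefSeq's and were not measured in these cells.

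**Figure D2:**
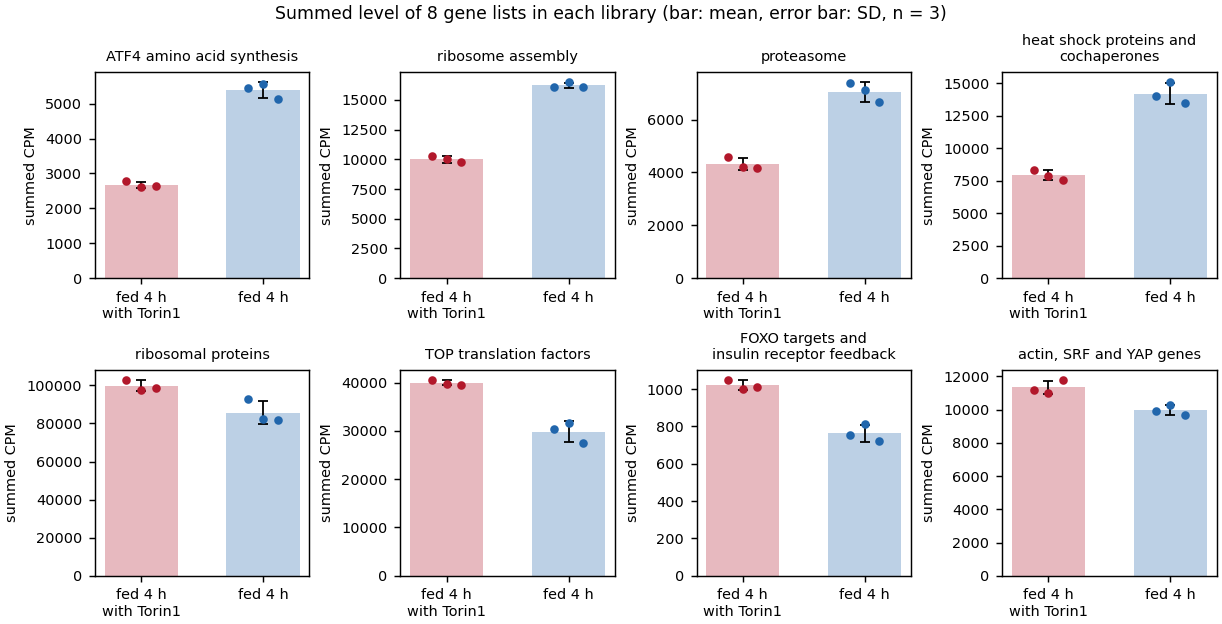
Summed CPM of 8 gene lists in each library (points), with the mean (bar) and SD (error bar, n = 3), for cells fed 4 h with Torin1 (left bar) and without it (right bar). The ATF4 synthesis genes summed to 2780, 2620 and 2630 CPM with Torin1, against 5460, 5570 and 5120 CPM without, whereas the ribosomal proteins and TOP factors summed higher with Torin1.

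Lipid synthesis was lower in part. Of 28 tested genes of sterol synthesis and uptake, 17 fell and 3 rose, with a median of -0.41, and total count scaling left 11 lower and 6 higher. NSDHL (-1.23) and DHCR7 (-0.94), enzymes of the late sterol pathway, were lower, and PMVK, the phosphomevalonate kinase, was higher (1.01). Of 25 genes of fatty acid and lipid synthesis, 15 fell and 4 rose. SREBF1 (ENSG00000072310), the transcription factor of lipid synthesis, had 28.4, 27.7 and 37.4 CPM with Torin1, against 80.9, 72.1 and 94.0 CPM without (log2 fold change -1.40, SE 0.12, edgeR adjusted p = 6.91e-11). Its relative SREBF2, which drives sterol genes, had 291, 281 and 327 CPM, against 277, 264 and 257 CPM without Torin1, a difference of 0.17 that lost its call in 5 of the other settings tried. CHKA (-1.98) starts phosphatidylcholine synthesis and fell, and MLXIPL, the glucose-sensing factor ChREBP, had 12.3, 14 and 14.2 CPM with Torin1, against 4.99, 2.88 and 4.22 CPM without (1.74).

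Sugar use moved the same way for most members. Of 30 tested genes of glycolysis and glucose uptake, 18 fell and 5 rose, with a median of -0.53. HK2, an inducible hexokinase, had 40.9, 34.1 and 34.1 CPM with Torin1, against 131, 134 and 153 CPM without (-1.94), and SLC2A1, the glucose carrier GLUT1, had a log2 fold change of -1.95. PFKL, the liver form of phosphofructokinase, had 216, 219 and 247 CPM with Torin1, against 85, 84.5 and 117 CPM without (1.25). Of 30 genes of the pentose phosphate pathway and nucleotide synthesis, 18 fell and 7 rose. PPAT (-1.14) and PAICS (-0.93) of purine synthesis and RRM2 (-1.08) of deoxynucleotide synthesis fell, and IMPDH2 (0.56) of guanine nucleotide synthesis rose. In polyamine and methionine metabolism 8 of 15 were lower and 1 higher, with AMD1 at -1.15 and ODC1 at -0.66.

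Protein quality control was lower on several fronts. Of 37 tested proteasome genes, 32 fell and 2 rose, with a median of -0.73. PSMD12, a subunit of the regulatory cap, had 92.3, 85.3 and 73.7 CPM with Torin1, against 221, 259 and 204 CPM without (log2 fold change -1.44, edgeR adjusted p = 3.03e-13). PSMD4, the ubiquitin receptor of the cap, and PSME1 were the members that rose, by 0.31 and 0.42. Of 26 heat shock proteins and cochaperones, 21 fell and 1 rose, led by CHORDC1, an HSP90 partner, with 32.6, 39.1 and 30.4 CPM with Torin1, against 149, 184 and 141 CPM without (-2.22). The chaperonin CCT, which folds actin and tubulin, had 6 of 8 subunits lower and 0 higher, and the unfolded protein response had 13 of 22 lower and 2 higher.

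Antioxidant genes of the NRF2 programme had 17 of 23 tested members lower and 2 higher, with a median of -0.77. PRDX1, a peroxiredoxin, had 293, 229 and 253 CPM with Torin1, against 943, 829 and 762 CPM without (-1.71). GCLM, a subunit of the enzyme that starts glutathione synthesis, had a log2 fold change of -1.64. Metal genes joined them: MT1X, a metallothionein, had 11.2, 14.3 and 12.4 CPM with Torin1, against 76.2, 70 and 76.7 CPM without (-2.55). The zinc exporter SLC30A1 was at -1.99, although metallothioneins share reads with near-identical relatives and 5 of 12 members of the zinc list were not tested. TFRC, the transferrin receptor, had 70, 51.1 and 53.3 CPM, against 263, 289 and 255 CPM without Torin1 (-2.21). The other iron genes had no shared direction, with 3 of 11 higher and 3 lower in all, or 1 higher and 2 lower without the second Torin1 replicate.

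Mitochondrial genes were lower where they concern biogenesis. Of 17 tested, 14 fell and 0 rose, with a median of -0.78. TWNK, the helicase of mitochondrial DNA, had 47.9, 42.8 and 45.8 CPM with Torin1, against 145, 144 and 139 CPM without (-1.65), and PPARGC1B, a coactivator of respiration genes, was at -1.77. Nuclear-encoded respiratory genes had 27 of 56 lower and 3 higher around a median of -0.21, and total count scaling left 16 lower and 10 higher. CYCS, cytochrome c, had the largest fall of them (-1.37). Of the mitochondrially encoded genes, 3 of 13 were lower (23.1%, under the 28.6% of all genes). The number lower was 1 under total count scaling, 5 by the DESeq2 Wald test and 8 by limma-voom. The mitochondrially encoded genes took 2.59, 3.31 and 3.17% of counts with Torin1, against 2.74, 3.57 and 3.81% without (exact two-sided permutation p = 0.4).

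**Figure D3:**
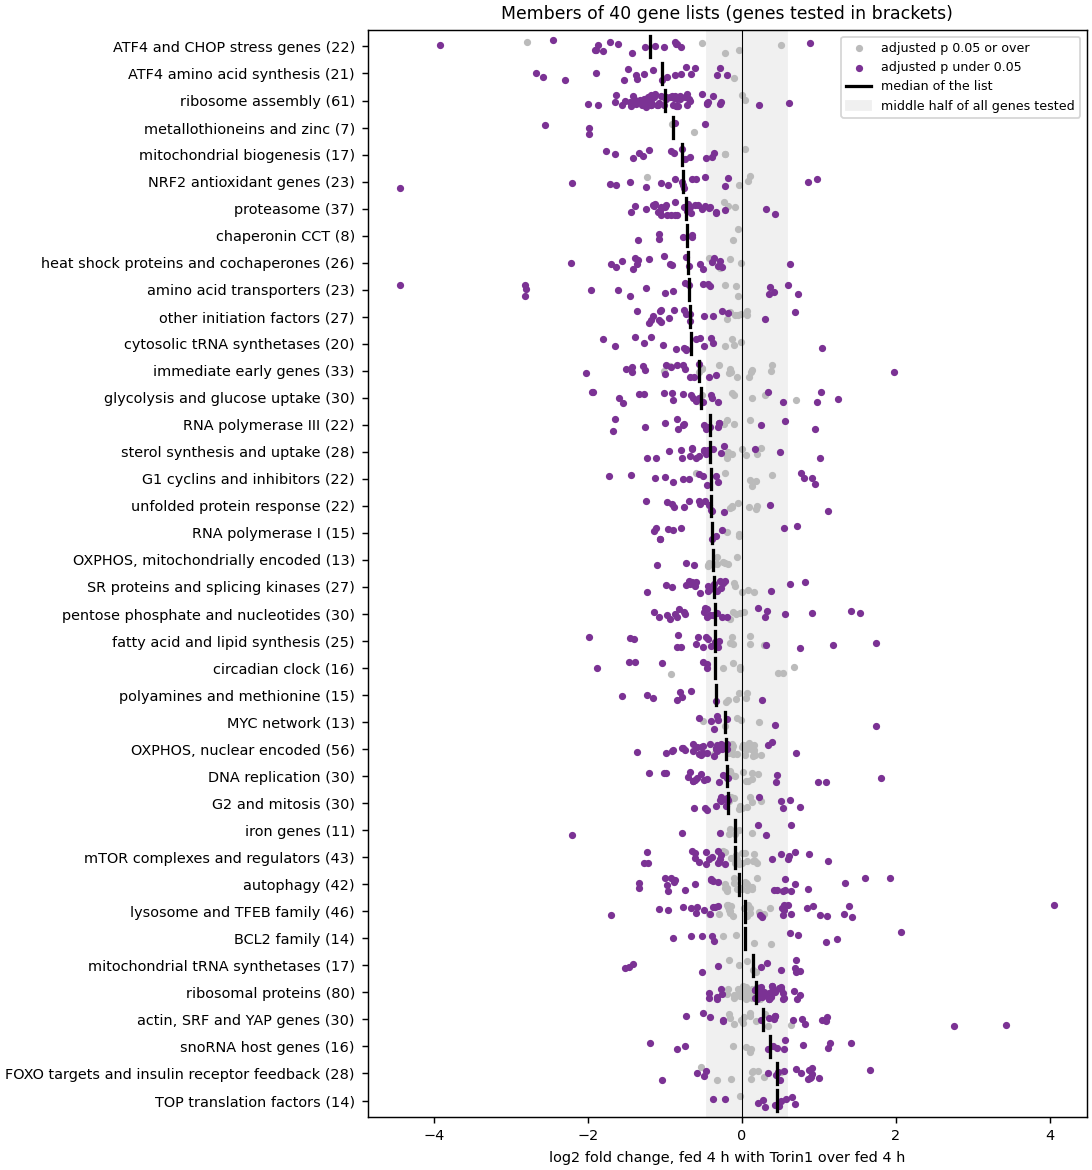
Log2 fold change of each tested member of 40 gene lists (fed 4 h with Torin1 over fed 4 h without), coloured by whether the gene was called, with the list median as a black bar and the middle 50% of all genes tested as a grey band. The lists run by median, with the ATF4 stress genes at -1.19 first and the genes at a median of 0.45 last.

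FOXO targets and genes of insulin receptor feedback rose more often than they fell, with 15 of 28 tested higher, 4 lower and a median of 0.45. TXNIP, an inhibitor of glucose uptake, had 62.6, 60.5 and 58.7 CPM with Torin1, against 19.7, 22.0 and 15.8 CPM without (log2 fold change 1.66, edgeR adjusted p = 7.41e-10). RBL2, a relative of the retinoblastoma protein, had 85.2, 79.5 and 85.5 CPM, against 37.6, 46.7 and 49.3 CPM without Torin1 (0.91). CDKN1B (0.77), the cyclin-dependent kinase inhibitor p27, IRS2 (0.55), the insulin receptor adaptor, FOXO1 (0.49) and FOXO3 (0.44) also rose, while GADD45B (-1.04) and ARRDC4 (-0.58) fell.

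Genes of the lysosome and the TFEB family moved in both directions, with 16 of 46 higher (34.8%), 12 lower (26.1%) and a median of 0.04, shares near those of all genes. GAA, which breaks down glycogen, had 180, 191 and 238 CPM with Torin1, against 70, 66.9 and 89.8 CPM without (1.43). LAMP1, the abundant lysosomal membrane protein, had 111, 102 and 123 CPM, against 235, 244 and 228 CPM without Torin1 (-1.08), and GLA, an alpha-galactosidase, was at -1.70. CTSO (ENSG00000256043), a cysteine cathepsin, had 9.82, 9.3 and 11.9 CPM with Torin1, against 0.963, 0.192 and 0.656 CPM without (4.05, SE 0.34, edgeR adjusted p = 1.92e-11), 1 of the lower values being under the limit that a count of 0 allows. The regulators TFEB (0.10) and TFE3 (-0.14) were not called.

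The E-box CACGTG, the core of the sites of TFEB, TFE3, MYC and related factors, was in 9.22% of all promoter windows, in 15.1% of those of genes lower by 2-fold and in 6.46% of those of genes higher by 2-fold. It was in 26.5% of 34 windows of lysosome genes and 42.6% of 61 windows of ribosome assembly genes. The 150 bases before the start alone leave out sites across or after the start, such as that of PES1. In those bases the E-box was in 26.5% of lysosome windows and 9.84% of ribosome assembly windows, against 5.9% of all. GAA, which rose, and LAMP1, which fell, both hold it near the start, and sites of each are shown to set them side by side, with the E-box in capitals.
GAA: gaggccgcgtCACGTGacccaccgcg
GAA: tcccgccggtCACGTGacccgcctct
LAMP1: cccgcgggatCACGTGacgcccgggc
LAMP1: cggcgcagctCACGTGacaagcgctg

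On GRCh38.p14 the GAA sites are at chr17:80101495-80101520 and chr17:80101540-80101565 on the plus strand, with the E-box at -76 and -31. The LAMP1 sites are at chr13:113297201-113297226 and chr13:113297228-113297253 on the plus strand, with the E-box at -28 and -1, and further matches in that window are not shown. The SREBP motif TCACNCCAC was in 1.01% of all windows and in 1 of 29 windows of sterol genes. The NRF2 motif TGACNNNGC was in 14.3% of all windows, 31.8% of 22 windows of NRF2 genes, 35.3% of 34 windows of lysosome genes and 9 of 31 windows of the ATF4 and CHOP stress genes. Both were searched on either strand. An E-box can overlap the flanks of the other motifs, and overlaps were not removed.

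Autophagy genes split likewise, with 11 of 42 higher (26.2%) and 14 lower (33.3%), again near all genes, and total count scaling gave 16 higher and 11 lower. ULK2, a kinase that starts autophagy, had 26.7, 22.0 and 25.2 CPM with Torin1, against 7.7, 9.21 and 7.4 CPM without (1.60). Its relative ULK1 was not called (0.19), and was called higher under total count scaling (0.35). ATG101 (-1.33) and ATG4A (-1.33), a partner of the ULK complex and a protease of LC3-like proteins, fell. Among 43 genes of the mTOR complexes and their regulators 7 rose and 17 fell, and total count scaling gave 10 higher and 10 lower. MTOR itself had 133, 141 and 146 CPM with Torin1, against 129, 143 and 147 CPM without, a log2 fold change of 0.00. RPTOR (-0.05) and RICTOR (0.17), which define mTORC1 and mTORC2, were not called, AKT1S1 (-1.24), the inhibitor PRAS40, and RHEB (-0.65), the activator of mTORC1, fell, and TSC2 (0.60), a subunit of the complex that holds RHEB back, rose.

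Genes of cell cycle entry were lower more often than higher. Of 22 G1 cyclins and inhibitors, 12 fell and 4 rose, and total count scaling gave 10 lower and 7 higher. CCND2 had 19.4, 21.7 and 23.3 CPM with Torin1, against 73.7, 70.9 and 69.8 CPM without (-1.73), and CCND1 was at -1.45 and CCNE1 at -1.13. The inhibitors CDKN2C (0.94) and CDKN1B were among those that rose. DNA replication genes had 16 of 30 lower and 5 higher, and total count scaling gave 12 lower and 11 higher. Of these, LIG1, the replicative ligase, had 154, 169 and 163 CPM, against 46.0, 38.9 and 53.8 CPM without Torin1 (1.81). Genes of G2 and mitosis were 12 lower and 5 higher of 30, and total count scaling turned this to 3 lower and 9 higher, while 8 were lower and 4 higher without the second Torin1 replicate. MYC had 142, 123 and 129 CPM with Torin1, against 167, 158 and 184 CPM without (-0.37, edgeR adjusted p = 0.00447), a call lost under total count scaling (edgeR adjusted p = 0.12).

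Immediate early genes, which growth factors switch on within minutes, were 17 lower and 1 higher of 33. JUN had 145, 149 and 167 CPM with Torin1, against 462, 400 and 448 CPM without. KLF10, a repressor induced by TGF-beta, was the member that rose, with 87.4, 76.6 and 72.8 CPM, against 18.6, 24.1 and 17.8 CPM without Torin1 (1.97). Circadian clock genes were 7 lower and 0 higher of 16, among them NR1D1 (-1.88), PER1 (-1.46) and BMAL1 (-1.39). In the BCL2 family 5 of 14 rose and 5 fell, and total count scaling gave 5 higher and 3 lower. The members that rose include the death-promoting BMF, with 26.5, 28.4 and 31.2 CPM with Torin1, against 7.7, 5.09 and 7.78 CPM without (2.06), and HRK (1.24), while MCL1, a survival factor, fell (-0.89). The death-promoting BAK1 (-0.67) and BAX (-0.36) also fell, the BAX call being lost under total count scaling, and BCL2L2 (0.62), a survival factor, rose.

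Genes of actin and of the factors SRF and YAP rose more often than they fell, 13 against 5 of 30, with a median of 0.27, and total count scaling gave 21 higher and 3 lower. ACTA2 (ENSG00000107796), smooth muscle actin, had 20.3, 24.3 and 24.3 CPM with Torin1, against 1.75, 1.54 and 3.09 CPM without (log2 fold change 3.43, SE 0.20, edgeR adjusted p = 2.34e-14). Its level was alike in the 3 Torin1 libraries, including the second, where COL1A2 was highest. Whether ACTA2 counts share the source of those reads was not tested. ARPIN, an inhibitor of the Arp2/3 complex, had 108, 119 and 117 CPM, against 16.8, 15.1 and 19.1 CPM without Torin1 (2.75). FLNA (1.04) and TPM1 (1.10) rose, and ACTB fell by 0.25 in a call lost under total count scaling, while actins share reads among themselves.

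Other genes with the largest rises had low levels without Torin1. WDR31, a WD-repeat protein, had 15.9, 14.5 and 16.9 CPM with Torin1, against 0.7, 0.48 and 0.562 CPM without (log2 fold change 4.73, SE 0.35, edgeR adjusted p = 2.23e-12). HGSNAT, a lysosomal acetyltransferase that helps degrade heparan sulfate, had 52.0, 54.0 and 62.0 CPM, against 7.7, 6.62 and 8.24 CPM without Torin1 (2.89). EPHX2 (2.81), the soluble epoxide hydrolase, DENND6B (2.83), SLC2A10 (2.79), FAXDC2 (2.92) and MYO15B (2.92) also rose. NUTM2D (2.93) belongs to a family of near-identical copies. H6PD, the pentose phosphate enzyme of the endoplasmic reticulum, had 63.6, 61 and 79.5 CPM with Torin1, against 13.2, 10.8 and 6.46 CPM without. Among the largest falls outside the lists, OLIG2, a transcription factor of neural lineages, had 1.64, 3.35 and 2.26 CPM, against 16.6, 13.6 and 19.3 CPM without Torin1. CHGA, a granin of secretory vesicles, was at -2.55 and PHLDA2 at -2.34.

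SR proteins and the kinases that act on them, which steer splicing, had 19 of 27 members lower and 3 higher, with SRSF4 at 158, 168 and 148 CPM with Torin1, against 363, 382 and 369 CPM without. Isoform use, the share of a gene's counts that each isoform takes, was called in 380 of 10700 genes (3.55%) by edgeR's diffSpliceDGE. On simulated counts that test found few of the changed isoforms and called more unchanged genes than a test on isoform shares, added after the data were seen, which called 1253 of 7653 genes (16.4%). Both tests called 180 genes, and leaving out 1 Torin1 replicate left diffSpliceDGE with 200 to 230. The 5 genes with the smallest p are therefore given by their shares.

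RBM39 encodes a splicing factor. Its isoform RBM39-206, annotated as a target of nonsense-mediated decay, took 15.44, 12.35 and 14.23% of the gene's counts with Torin1, against 0% in each library without it (446, 371 and 417 reads against 0). RBM39-212, annotated as such a target too, took 5.05, 3 and 3.79% with Torin1, against 18.43, 12.85 and 15.85% without. Isoforms with this annotation thus moved in both directions. For both isoforms the groups did not overlap. For isoform use of the gene as a whole diffSpliceDGE gave adjusted p = 3.75e-15 and the share test adjusted p = 0.0102. RPS26-201 took 1.25, 0.72 and 1.06% of the ribosomal protein gene's counts with Torin1, against 28.54, 27.46 and 28.55% without, while RPS26 as a whole was not called (log2 fold change 0.01). RPL10-202 took 4.67, 4.26 and 4.69%, against 19.29, 17.86 and 18.4% without Torin1. EIF4G1-206 took 1.06, 1.78 and 3.91%, against 19.13, 15.52 and 19.52%, and EEF1G-204 took 0.07, 0.21 and 0.11%, against 4.3, 5.52 and 4.15%. The share test also called RPS26, RPL10 and EIF4G1 but did not test EEF1G, whose call rests on diffSpliceDGE alone. Isoform counts are estimates that divide shared reads by a model, and RPS26, RPL10 and EEF1G have near-identical copies.

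**Figure D4:**
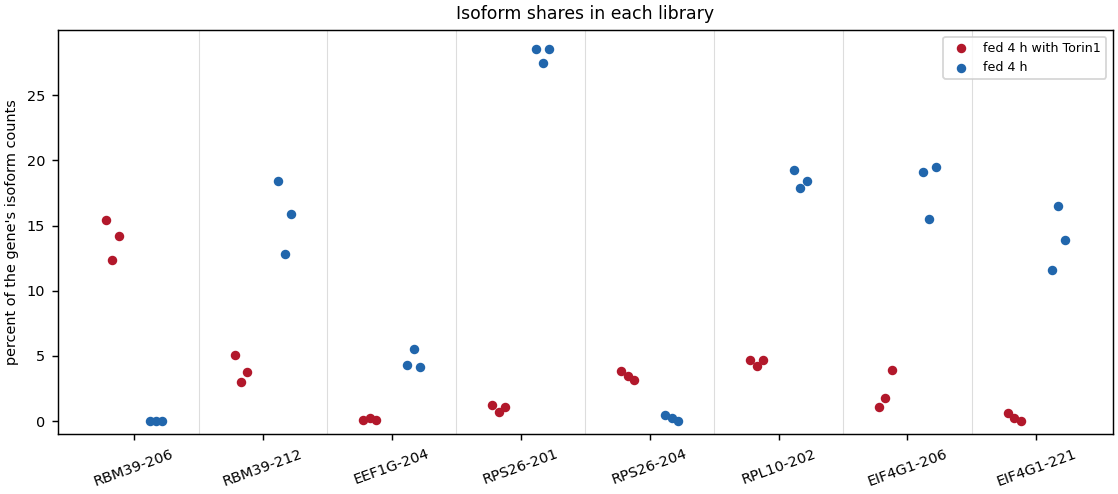
Share of the gene's isoform counts, in percent, taken by 8 isoforms of 5 genes in each library fed 4 h with Torin1 (red, left of each pair) and without it (blue). RBM39-206 is at 0% in the 3 libraries without Torin1, and RPS26-201 lies near 28% in them and near 1% with Torin1.

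Whether Torin1 acted alike in other feeding states was asked by the difference between its effects, in a fit that held all 18 libraries. Torin1 libraries and their own untreated libraries in starved and in 1 h fed cells share none with the 4 h comparison. Torin1 libraries in starved cells had 33.9% of all tested genes higher and 29.6% lower, and those in 1 h fed cells had 33.2% higher and 29.9% lower. Of the genes higher at 4 h, 74.3% were also higher with Torin1 in starved cells, which is 60.2% of the starved list, and 108 (2.4%) were lower there. Of the genes lower at 4 h, 72.4% were lower in starved cells, 69.9% of that list, and 404 (8.61%) were higher there. In 1 h fed cells 74.4% of the genes higher at 4 h were higher, 61.5% of that list, and 94 (2.09%) were lower. Of the genes lower at 4 h, 73.1% were lower in 1 h fed cells, 69.9% of that list, and 376 (8.01%) were higher.

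The effect at 4 h differed from that in starved cells for 4231 genes (25.8%), being more positive for 1598 (9.74%) and more negative for 2633 (16.0%). It differed from that in 1 h fed cells for 3950 genes (24.1%), more positive for 1400 (8.53%) and more negative for 2550 (15.5%). Effects at least 2-fold apart were called for 403 genes in the positive direction (2.46%) and 1106 in the negative (6.74%) against starved cells. Against 1 h fed cells these were 428 (2.61%) and 1003 (6.11%). For 3992 (94.4%) of the 4231 genes the level moved more between starvation and 4 h of feeding without Torin1 than with it, by a median of 0.12 with Torin1 and 0.74 without on the log2 scale of CPM plus 0.5. These genes were chosen by a difference that holds both movements, so the share is a description, and both differences use the same 4 h libraries.

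PLAGL2, a zinc finger transcription factor, had 54.6 ± 1.04 CPM with Torin1 at 4 h and 60.7 ± 2.81 CPM with Torin1 in starved cells (SD, n = 3 each). Without Torin1 it had 134 ± 5.45 CPM at 4 h and 15.6 ± 3.13 CPM in starved cells (SD, n = 3 each). Torin1 lowered it at 4 h by 1.29 on the log2 scale, and the difference of the effects was -3.26 (SE 0.15, edgeR adjusted p = 5.28e-16). MEN1, the menin scaffold of histone methyltransferases, averaged 123 and 125 CPM with Torin1 at 4 h and in starved cells, against 144 and 21.7 CPM without. POFUT1, which adds fucose to Notch receptors, averaged 124 and 128 CPM with Torin1, against 97 and 15.9 CPM without. In the other direction, PLEKHH3 averaged 23.1 and 31.6 CPM with Torin1, against 28 and 143 CPM without, and RNF44, a ubiquitin ligase, averaged 57.7 and 68 CPM, against 50.6 and 163 CPM.

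Against 1 h fed cells, TUBGCP3, a part of the gamma-tubulin ring, averaged 41.7 and 43.2 CPM with Torin1 at 4 h and 1 h, against 51.7 and 5.15 CPM without. CCNG2, an atypical cyclin, averaged 42.9 and 34.6 CPM with Torin1, against 23.7 and 55.9 CPM without. ARRDC4, an arrestin-like relative of TXNIP, averaged 26.6 and 23 CPM, against 39.9 and 133 CPM without Torin1. In each of these genes the levels with Torin1 stayed within a narrower range over the feeding states than the levels without it. They too were chosen by a difference that holds both movements, so this is a description.

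**Figure D5:**
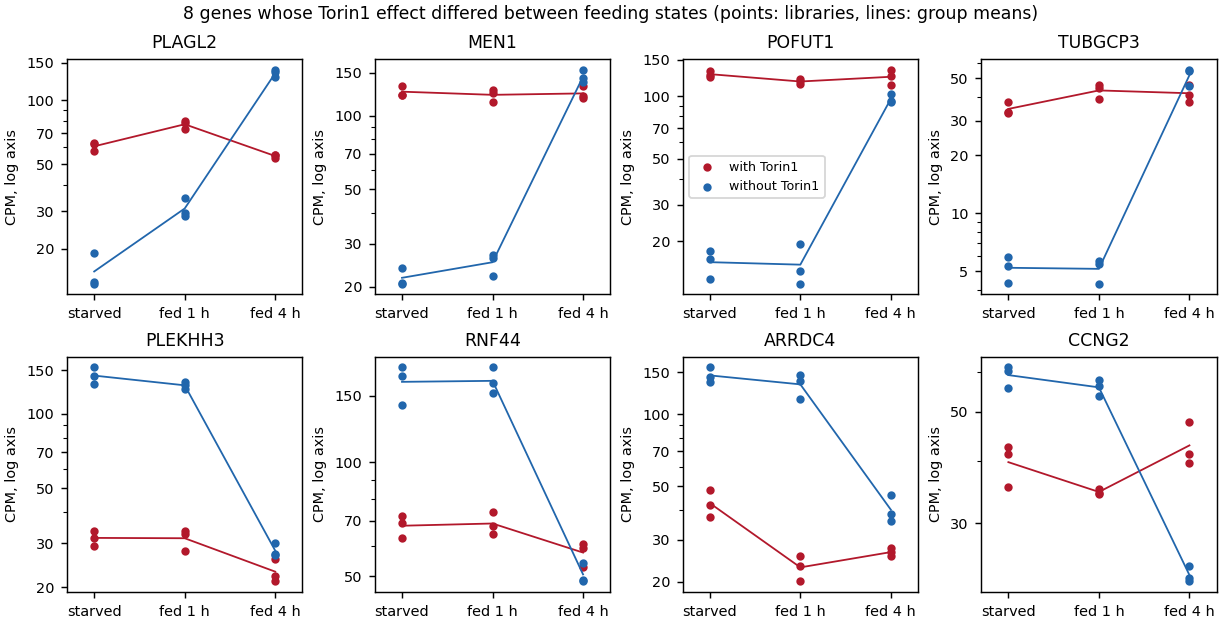
CPM on a log axis of 8 genes whose Torin1 effect differed between feeding states, in starved cells and cells fed 1 h and 4 h, with Torin1 (red) and without it (blue); points are libraries and lines join group means. Without Torin1 PLAGL2 averaged 15.6 CPM in starved cells, 30.9 CPM after 1 h and 134 CPM after 4 h, while with Torin1 it lay between 54.6 and 77 CPM.

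Among the lists, the RNA polymerase III genes stood at a median of -0.42 at 4 h, against 0.06 in 1 h fed and -0.03 in starved cells, and 13 of 22 were more negative at 4 h in each difference. The pentose phosphate and nucleotide genes had medians of -0.35 at 4 h, -0.02 at 1 h and 0.01 in starved cells, with 10 of 30 more negative at 4 h in each difference. Sterol genes went the other way, with medians of -0.41 at 4 h, -0.61 at 1 h and -0.70 in starved cells, and 10 of 28 more positive at 4 h in each difference. For the actin, SRF and YAP genes 15 of 30 were more positive at 4 h than in starved cells and 2 more negative, while against 1 h fed cells 9 were more positive and 4 more negative. Of all genes tested, 9.74% were more positive and 16.0% more negative at 4 h than in starved cells. Against 1 h fed cells these shares were 8.53% and 15.5%.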

How the data were processed

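The authors deposited expected counts per gene and per isoform for 18 libraries; per the submitters' processing notes STAR, RSEM and DESeq2 were used, with no versions. The sources used here give no human build, annotation release, strand setting or Torin1 dose, and the build named in the labels is of another species although the identifiers are human. Expected counts were rounded (3.317% were not whole). Symbols came from a gene name table (60295 IDs) and GENCODE release 29 (309 more), and 205950 of 227368 isoforms, with 98.872% of counts, matched that release.

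Genes were filtered with filterByExpr (minimum count 10), scaled by TMM and fitted in edgeR 4.0.16 (R 4.3.3) with 6 group means over 18 libraries, which leaves 12 residual degrees of freedom, by robust quasi-likelihood with Benjamini-Hochberg adjustment over 16414 genes at 0.05; the common biological coefficient of variation was 10.6%. On simulated data the fit recovered 62.7% of 1.5-fold and 73.1% of 2-fold changes for Torin1 at 4 h. For the difference from starved cells it recovered 29.9% and 56.7%, so a gene that was not called may still have changed. Isoform use was tested with diffSpliceDGE and, as an addition after seeing the data, with limma 3.58.1 on arcsine square roots of isoform shares (isoforms with 5 to 95% of a gene's counts, genes with at least 100 mean counts). DESeq2 1.42.0 was an alternative. Shares of counts were compared with exact permutation tests (scipy 1.17.1). Sequences are RefSeq's.

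Members and gene lists were chosen with earlier results of these data known. Named genes are 5 markers of the response, the 12 called genes of at least 5 CPM and without overlap that moved most each way (leaving out clone, antisense and LINC symbols), up to 4 called members per list and direction by p, 5 per direction for each difference of effects, 5 for isoform use, and 16 regulators whether called or not. Because strand is unknown, overlapping and antisense genes are uncertain. The main fit did not pair libraries by replicate number, and same-number correlations of deviations over all genes tested were 0.046, -0.006 and 0.073. Values over all genes can miss a batch that touches only some of them. DDIT4, for 1, was highest in replicate 1 of all 6 groups.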

Additional observations from a re-analysis of the deposited data

Results flagged for a closer look

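These genes were picked out because Torin1's effect at 4 h differed from its effect in another feeding state by the test of the difference itself (edgeR's quasi-likelihood test, adjusted p under 0.05). Values are the log2 fold change at 4 h minus that in the other state, with the smallest p in each direction chosen.

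Against starved cells the effect at 4 h was more positive for PLEKHH3 (1.89), TMEM79 (2.11), RNF44 (1.45), KCTD13 (1.82) and GATA2 (1.55). It was more negative for PLAGL2 (-3.26), MEN1 (-2.76), NACC1 (-2.2), POGK (-2.13) and POFUT1 (-2.66).

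Against 1 h fed cells it was more positive for PLEKHH3 (1.77), ARRDC4 (1.95), CCNG2 (1.55), RNF44 (1.44) and CBX2 (1.12), and more negative for MEN1 (-2.5), TTC4 (-2.28), PLAGL2 (-2.61), TUBGCP3 (-3.38) and NACC1 (-2.15). GATA2, a transcription factor, averaged 32.4 and 20.5 CPM with Torin1 at 4 h and in starved cells, against 36.4 and 67.6 CPM without. CBX2, a Polycomb protein, averaged 170 and 150 CPM with Torin1 at 4 h and 1 h, against 83.4 and 161 CPM without.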

How the results depend on the processing

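Total count scaling gave 62.6% of calls as higher in place of 49.0%, and 654 genes lower by 2-fold in place of 1010. With it the list medians moved with the shift of all genes (log2): ATF4 amino acid synthesis -0.877, ATF4 and CHOP stress -1.031, cytosolic synthetases -0.5, mitochondrial synthetases 0.302, ribosome assembly -0.842, RNA polymerase III -0.26, ribosomal proteins 0.344, TOP factors 0.612, fatty acid synthesis -0.183, glycolysis -0.364, pentose and nucleotides -0.187, polyamines -0.175, heat shock -0.541, CCT -0.547, unfolded protein response -0.236, FOXO targets 0.614, proteasome -0.571, actin, SRF and YAP 0.433, MYC network -0.061, G1 cyclins -0.239, DNA replication -0.028, G2 and mitosis -0.013, SR proteins -0.2, nuclear OXPHOS -0.043, clock -0.187, lysosome 0.208 and BCL2 family 0.201. The medians of the mTOR regulators (0.071), autophagy (0.121) and iron genes (0.075) turned positive. The share of higher calls among differences of effects was 37.8% against starved and 35.4% against 1 h fed cells, and DESeq2 size factors gave 45.0% and 41.7%.

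Leaving out 1 library gave 8295 to 8868 genes called at 4 h, 3546 to 4367 for the difference from starved cells and 3456 to 4046 for that from 1 h fed cells. List medians that moved when 1 library was left out ranged over 0.043 to 0.181 (mitochondrial synthetases), -0.847 to -0.661 (heat shock), -0.043 to 0.103 (lysosome), 0.213 to 0.32 (actin, SRF and YAP), -0.204 to -0.051 (G2 and mitosis), -1.304 to -0.891 (metallothioneins and zinc) and -0.04 to 0.087 (BCL2 family). Isoform use was the least stable result: 200 to 273 genes without 1 library (200, 211 and 230 without each Torin1 replicate), 1207 by the gene F test and 1253 by the share test, in place of 380; the cause was not tested. The 100 most abundant genes differed by 2.55 percentage points without mitochondrially encoded genes, in place of 2.2.

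In the 150 bases before the start, motifs were rarer. That window is shorter and leaves out sites across or after the start. The ATF4 motif was in 0.968% of all windows, 1.51% of those of genes lower and 0.564% of those of genes higher by 2-fold. For the E-box these shares were 5.9, 8.22 and 3.85%, and for the NRF2 motif 7.72, 10.6 and 6.36%. The SREBP motif was in 0.504% of all. With the replicate block 9385 genes were called at 4 h, 4492 and 4201 for the differences and 331 for isoform use; the block changed no named gene's call. The direction of no called gene among those named reversed; 23 of 2724 values lost and 4 gained their call in other settings, and 50 of 1818 lost it without 1 library; the largest such change was that of MT-ND4L (-0.73). Depth limits genes such as CTSO, whose lowest libraries hold a few reads.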
